A study of Drosophila melanogaster with 13 samples.

Results

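CG13643, CG34461, Osi7 and CG16886 are 4 genes whose transcripts were higher in the Drosophila melanogaster proboscis after a high sugar diet and lower after RNA interference (RNAi) against OGT in sweet taste neurons. They were taken by name from 13893 genes in the files with that pattern known, and they are not the only genes to show it. The direction of both changes is therefore given as a description, without a test. Estimated counts were summed per gene and put on the TMM CPM scale, that is counts as a share of the library's total (CPM) after scaling by the trimmed mean of M-values within each experiment. A gene was called where its adjusted p in edgeR's quasi-likelihood test, with Benjamini-Hochberg adjustment over all genes tested, was under 0.05.

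All 4 genes belong, by their annotation or their family, to the biology of the insect cuticle. Cuticle is a layered apical matrix of chitin fibres and proteins that epidermal, tracheal and bristle-forming cells secrete at each moult, and in the fly most of the adult cuticle is laid down in the pupa. Many structural cuticle proteins bind chitin through a conserved domain, the Rebers and Riddiford (R&R) consensus, and other secreted or membrane proteins shape the matrix before it hardens. The fly proboscis is covered by such cuticle, including the hairs that house its taste neurons.

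RNA came from whole proboscises, given as labellum in the labels, in 13 libraries of 4 groups. In the diet experiment, flies of the genotype called parental were kept on high sugar food for 7 days (sugar diet, n = 2) or stayed on a control diet of standard cornmeal food (n = 2), with 200 proboscises per library and the Ovation kit for model organisms. In the RNAi experiment every fly spent 7 days on the high sugar diet and carried Gr5a-GAL4, with the transgene UAS-OGT RNAi (OGT RNAi, n = 5) or without it (Gal4 control, n = 4), with 20 proboscises per library and the Ovation SoLo kit for Drosophila. Gr5a-GAL4 drives expression in sweet taste neurons, a small part of the cells sequenced, and cuticle genes are mainly genes of other cells. The replicates are called biological in the series text, each library pools many flies, and the age and sex of the flies are not given in the sources used here. Because kit and input differed, each experiment was fitted on its own.

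Total counts of named genes ranged from 5632566 to 13884963 per library. The targeted gene sxc, which encodes the O-GlcNAc transferase OGT, lay between 133 and 170 CPM in the 5 OGT RNAi libraries and between 142 and 173 CPM in the 4 Gal4 control libraries. These ranges overlapped through OGT RNAi replicate 2 alone, at 170 CPM. Replicates 1, 3, 4 and 5, at 138, 133, 135 and 136 CPM, lay under the lowest Gal4 control. The log2 change of -0.19 was not called (adjusted p in edgeR = 0.376, unadjusted p in edgeR = 0.0455). The deposited Gal4 sequence had 0 counts in the 4 diet libraries, 0.792 to 1.95 CPM (without TMM scaling, 11 to 18 counts) in the OGT RNAi libraries and 1.81 to 3.04 CPM (20 to 41 counts) in the Gal4 controls. The groups overlapped in CPM through OGT RNAi replicate 4 alone, at 1.95 CPM. OGT RNAi replicates 1, 2, 3 and 5, at 0.792, 1.28, 1.35 and 1.37 CPM, lay under the lowest Gal4 control. Markers of taste neurons, neurons, muscle and sensillum support cells were present in the files, and the summed markers of male or female reproductive tissue stayed at or under 1.93 CPM in every library.

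All 4 genes were called higher on the sugar diet, where 3.12% of 8825 tested genes were called higher and 6.47% in either direction, and all 4 were called lower in OGT RNAi, where 0.223% of 9399 tested genes were called lower, 1.04% higher and 1.27% in either direction. These shares describe the selection and nothing is read from them. Of 8614 genes tested in both comparisons, 0.058% (5 genes) were called in that pair of directions, these 4 among them. Another 5 genes were called higher in both, 3 (0.0348%) were called lower on sugar and higher in OGT RNAi, and 0 were called lower in both by edgeR (97 at an unadjusted p under 0.05 in each, 10 called by DESeq2 and 2 by limma on TPM). By sign alone, 2126 genes, or 24.7%, were positive on sugar and negative in OGT RNAi.

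At the edge of the choice, CG34461 had the largest adjusted p inside it, 0.0441 in the RNAi comparison by edgeR. The nearest gene that missed the threshold was CG43291, with log2 changes of 1.07 and -0.64 and an adjusted p in edgeR of 0.0528 in the RNAi comparison, followed by Mp (a collagen of the multiplexin type), at 0.0643 in the diet comparison.

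**Figure D1:**
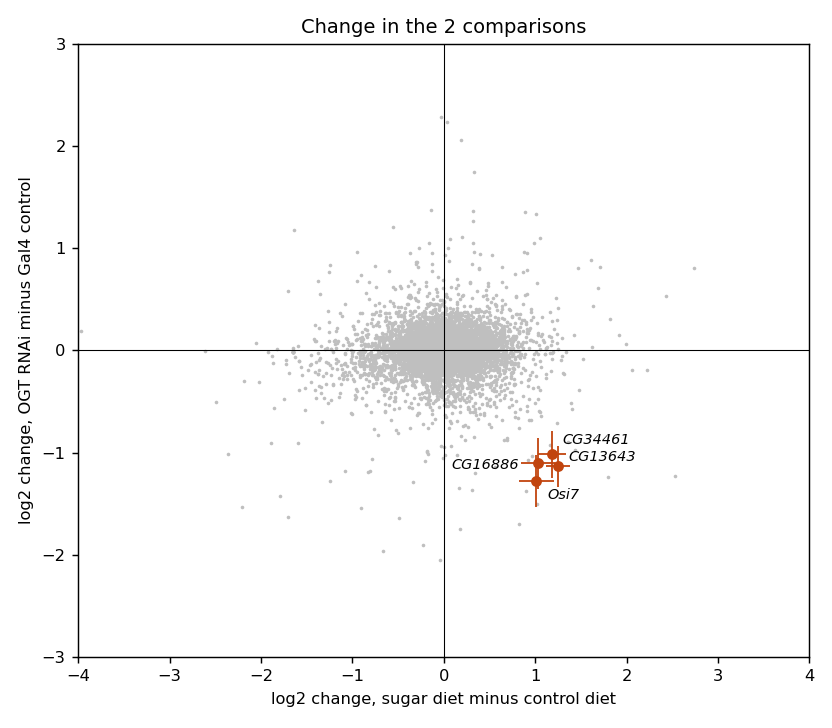
Log2 change in OGT RNAi (vertical axis) against log2 change on the sugar diet (horizontal axis) for the 8614 genes tested in both comparisons, with the 4 genes in red and bars of 1 standard error. The 4 genes lie together in the lower right, between 1.01 and 1.25 on the horizontal axis and between -1.28 and -1.02 on the vertical axis; 10 genes lie outside the axes.

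CG13643 (FBgn0040601) encodes a predicted protein with a chitin binding domain. It lies on chromosome arm 3R, bases 24897685 to 24906004 on the minus strand of BDGP6, and has 4 annotated transcripts of 6 exons each. Its level was 59.8 and 65.3 CPM in the sugar diet libraries and 24.1 and 28.5 CPM in the control diet libraries. The sugar libraries stood apart from the controls, the lower one at 2.10 times the higher control. The fitted log2 change was 1.25 (SE 0.13). In OGT RNAi replicates 1 to 5 it measured 1.67, 2.89, 2.83, 3.57 and 2.11 CPM, against 6.67, 5.48, 5.32 and 4.97 CPM in Gal4 control replicates 1 to 4. Every RNAi library was below every control library, and the log2 change was -1.14 (SE 0.20).

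CG34461 (FBgn0250833) encodes a predicted structural cuticle protein with the chitin-binding R&R consensus. It lies on 3L, bases 8325859 to 8328307 on the plus strand of BDGP6. It measured 33.8 and 30.2 CPM on the sugar diet and 13.99 and 14.08 CPM on the control diet, so the groups were again apart, by 2.14 times between their nearest libraries. The log2 change was 1.18 (SE 0.15). OGT RNAi replicates 1 to 5 measured 1.31, 1.93, 1.97, 3.32 and 1.75 CPM, and Gal4 control replicates 1 to 4 measured 4.87, 3.90, 3.85 and 3.49 CPM. The gap here was narrow: RNAi replicate 4 lay just under the lowest control, at a ratio of 1.05. The log2 change was -1.02 (SE 0.23).

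Osi7 (FBgn0037414) belongs to the Osiris family, secretory-pathway and membrane proteins with a shared domain of unknown function (DUF1676) that cuticle-secreting cells express while they form cuticle, in trachea and in sensory hairs among other places. It lies on 3R, bases 6248994 to 6251683 on the plus strand of BDGP6, and has 1 annotated transcript of 1 exon, so its counts hold no choice between isoforms. It measured 17.0 and 15.3 CPM on sugar and 7.75 and 8.17 CPM on the control diet. The lower sugar library was 1.88 times the higher control, and the log2 change was 1.01 (SE 0.20). In OGT RNAi replicates 1 to 5 it measured 0.870, 1.49, 1.57, 2.09 and 0.874 CPM, against 3.82, 3.32, 2.84 and 2.97 CPM in Gal4 control replicates 1 to 4. The 2 groups did not overlap, with a ratio of 1.36 between their nearest libraries, and the log2 change of -1.28 (SE 0.25) was the most negative of the 4 genes.

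CG16886 (FBgn0028938) carries the current symbol Vajk1. The Vajk genes encode secreted proteins associated with the cuticle, where they are known for a part in the barrier that the cuticle forms. The deposited annotation gives no function for it. It lies on 2L, bases 13920707 to 13923553 on the minus strand of BDGP6, with 2 annotated transcripts. It measured 27.1 and 25.6 CPM on sugar and 10.2 and 15.3 CPM on the control diet. Its control libraries differed more than those of the other 3 genes, with a coefficient of variation (CV, SD over mean) of 28.1%, yet both lay under the sugar libraries. The log2 change was 1.03 (SE 0.19). OGT RNAi replicates 1 to 5 measured 1.09, 2.02, 1.89, 0.861 and 1.24 CPM, and Gal4 control replicates 1 to 4 measured 3.15, 2.57, 3.03 and 3.66 CPM. Again no RNAi library reached the lowest control, with a ratio of 1.28 between the nearest, and the log2 change was -1.11 (SE 0.25).

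**Figure D2:**
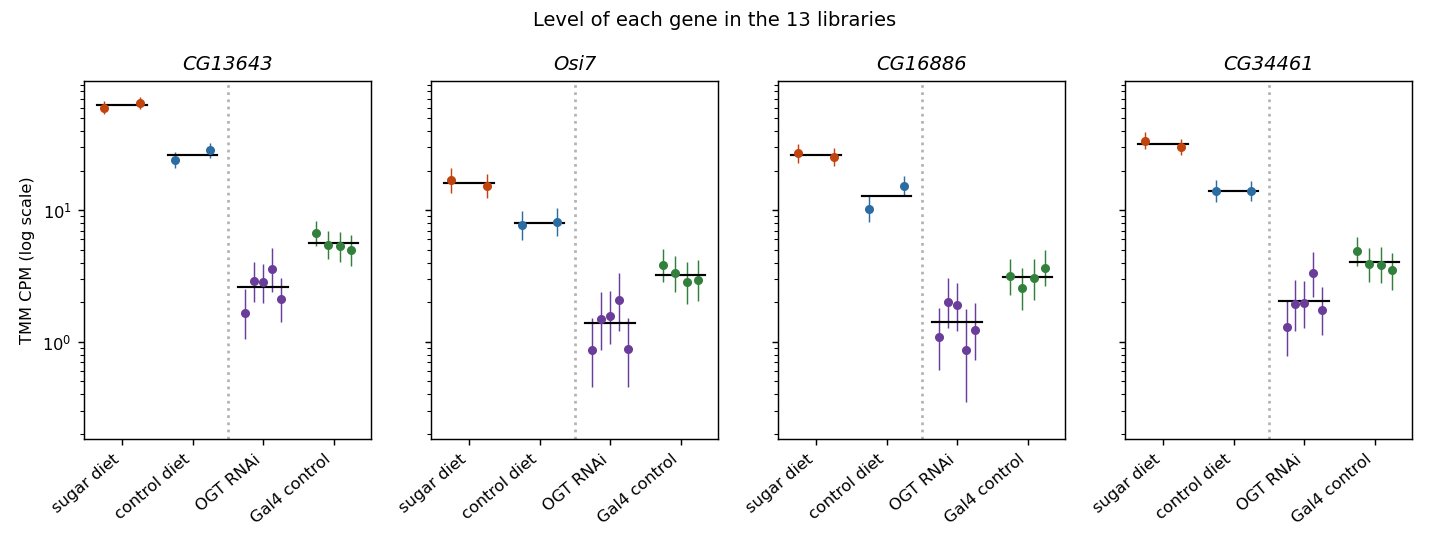
Level of CG13643, Osi7, CG16886 and CG34461 in each of the 13 libraries in TMM CPM on a log axis, with 95% Poisson counting intervals (counting error only) as thin bars and group means as black lines; the dotted line separates the 2 experiments. In each panel both sugar libraries lie above both control diet libraries, and the 5 RNAi libraries lie below the 4 Gal4 controls.

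The absence of overlap between groups was common in the diet comparison, where 23.5% of tested genes had both sugar libraries above both controls, and less so in the RNAi comparison, where 1.81% had all 5 RNAi libraries below all 4 controls. A log2 change of 1 or more on sugar was held by 1.5% of tested genes, and one of -1 or less in OGT RNAi by 0.553%. All 4 genes met both, with ranks between 56 and 127 among 8825 genes on sugar and between 23 and 49 among 9399 in OGT RNAi. Both comparisons had been used to choose the genes, so these ranks describe the choice.

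The counts behind the 2 comparisons differed. In the diet experiment the 4 genes held 86 to 409 counts per library on sugar and 62 to 251 on the control diet, but in the other experiment 31 to 89 in the Gal4 controls and 7 to 36 in the OGT RNAi libraries. In OGT RNAi the CV between libraries was 28.2% for CG13643, 37.5% for Osi7, 35.8% for CG16886 and 36.8% for CG34461. Counting error alone gives a CV of 18.3% to 25.3% at these counts. The number of the 4 genes past the threshold in the RNAi comparison was 4 without OGT RNAi replicate 4, 3 without OGT RNAi replicate 2 or 3, 2 without Gal4 control replicate 3, 1 without OGT RNAi replicate 1 or 5 or Gal4 control replicate 2 or 4, and 0 without Gal4 control replicate 1. All 4 log2 changes stayed negative in each of these fits. In the diet comparison the number was 2 without control diet replicate 1 and 4 without any other library.

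Levels were set side by side across the experiments only with the reservation that kit, input and genotype differed and that each experiment was scaled alone. The Gal4 control flies were on the same diet as the sugar diet flies, but CG13643 was 11.2 times, CG16886 8.48 times, CG34461 7.94 times and Osi7 4.99 times as high in CPM in the sugar diet libraries as in the Gal4 controls. Among the 8614 genes tested in both experiments the median gene moved the other way, with a log2 difference of 0.78 for Gal4 control minus sugar diet on the log2(CPM + 0.5) scale. The corresponding differences were -3.37 for CG13643, -2.90 for CG16886, -2.84 for CG34461 and -2.16 for Osi7, and 0.371% to 0.998% of genes had differences as low. The parts of kit, input and genotype in this cannot be told apart. The mean control diet level of each gene, 7.96 to 26.3 CPM, was also above its highest level in any library of the RNAi experiment.

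Per length, in TPM (transcript abundance scaled to transcript length and library), the 4 genes were of middle to high abundance in the diet experiment and low in the other. On sugar, CG34461 averaged 28.2 TPM, CG13643 27.1 TPM, CG16886 14.95 TPM and Osi7 8.02 TPM, above 84.1%, 83.6%, 73.7% and 62.8% of all genes. CG34461 and CG13643 did not differ beyond their spread there, their libraries lying at 26.0 and 30.3 TPM for CG34461 and 22.8 and 31.3 TPM for CG13643. In the Gal4 controls CG34461 averaged 3.68 TPM, CG13643 2.30 TPM, CG16886 1.66 TPM and Osi7 1.53 TPM, above 43.6%, 39.4%, 37.1% and 36.4% of genes. There the ranges of CG16886 and Osi7 overlapped, as did those of CG34461 and CG13643. In OGT RNAi all 4 averaged between 0.631 and 1.46 TPM.

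TPM also changed the size of the differences on sugar. On the log2(TPM + 0.5) scale the median of all tested genes shifted to -0.27 on sugar, and the split of calls with limma was 59 higher and 446 lower, against 275 higher and 296 lower with edgeR on counts. The sugar change on this scale was 0.95 for CG13643, 0.68 for Osi7, 0.73 for CG16886 and 0.40 for CG34461. Relative to that median it was 1.22 for CG13643, 0.95 for Osi7, 0.99 for CG16886 and 0.67 for CG34461. The RNAi change on this scale was -0.87 for CG13643, -0.86 for Osi7, -0.81 for CG16886 and -1.10 for CG34461, with a median of -0.03 over all genes. With limma on this scale 1 of the 4 genes passed the threshold on sugar and 3 in OGT RNAi. All 4 kept their direction in both comparisons. Without the added 0.5, the log2 ratios of mean TPM in OGT RNAi were -1.14 for CG13643, -1.28 for Osi7, -1.15 for CG16886 and -1.33 for CG34461. These were at or beyond the changes on counts.

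The smaller TPM change of CG34461 on sugar went with a shift between its transcripts. The 2 annotated transcripts share a coding length of 414 bases and differ in the 3′ UTR, which is 100 bases in the short transcript and 1292 bases in the long one. The long transcript measured 21.02 and 22.41 TPM on sugar and 9.37 and 8.62 TPM on the control diet, so it was higher on sugar in both libraries. The short transcript went the other way, at 5.00 and 7.88 TPM on sugar and 9.41 and 15.2 TPM on the control diet. By counts the short transcript made up 6.39% and 9.36% of the gene on sugar and 22.7% and 34.0% on the control diet. The groups did not overlap in this share, but with 2 libraries a side an exact test cannot go under p = 0.333.

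The sum of both, per length, was 26.0 and 30.3 TPM on sugar and 18.8 and 23.8 TPM on the control diet. The log2 change of the gene on sugar fell from 1.18 on counts to 0.69 with an offset for effective length. In the authors' deposited table, effects are on a natural-log scale: the long transcript had an effect of 1.07 (q = 4.53e-07), the short one -0.45 (q = 1), and the gene as a whole 0.47 (q = 0.0789). The gene was chosen on this contrast in the same libraries, so these q-values are a description and no support for its rise. In the authors' deposited table the gene-level effects on sugar of the other 3 genes were 0.86 for CG13643, 0.71 for CG16886 and 0.70 for Osi7. In Gal4 control replicates 1 to 4, on the same diet as the sugar diet flies, the short transcript made up 9.03%, 30.4%, 8.36% and 0% of the gene's counts. One of these libraries thus lay within the range of the control diet, and a low share did not go with the sugar diet in every library. In OGT RNAi the short transcript held 0 counts in 4 of 5 libraries and 5.59% of the gene's counts in replicate 4, and the gene's change was -1.33 on log2 with the length offset. No sequencing of transcript ends was analysed here, and kallisto estimates the split from reads that both transcripts share.

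**Figure D3:**
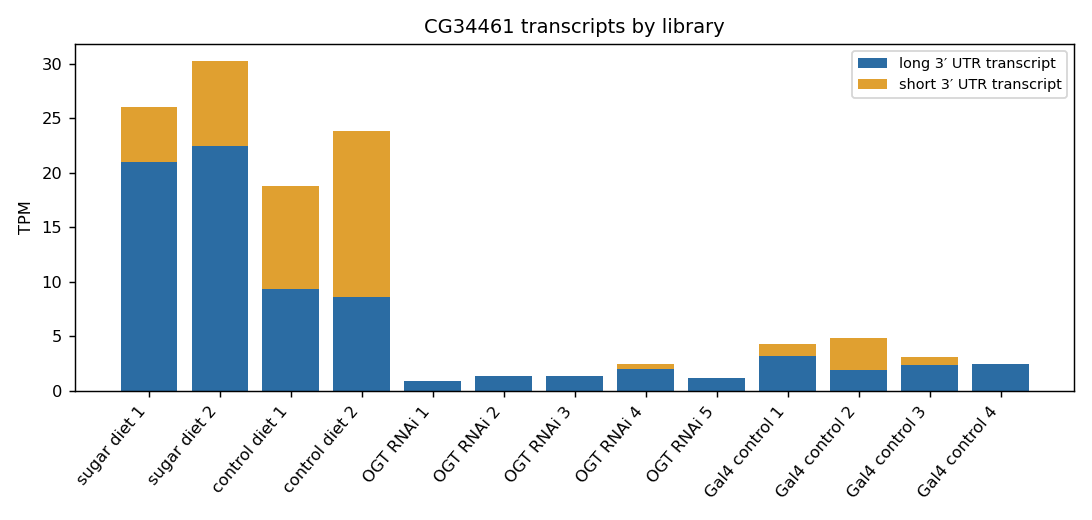
TPM of the long (blue) and short (orange) 3′ UTR transcripts of CG34461, stacked, in each of the 13 libraries. The blue part was 21.02 and 22.41 TPM in the sugar diet libraries and 9.37 and 8.62 TPM in the control diet libraries, while the orange part was smaller on sugar.

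For CG13643 and CG16886 the split between transcripts could not be read, since the estimated shares differed widely between libraries of 1 group. In OGT RNAi a transcript of CG13643 held from 0% to 100% of the gene's counts, and so did each CG16886 transcript there and in the Gal4 controls. In the diet experiment the spread was smaller for CG16886, with 1 transcript at 80.0% and 100% on the control diet and 30.7% and 67.4% on sugar. Gene sums were used for both.

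Between libraries of the same group, 3 of the 4 genes varied together. The genes were not chosen for varying together within groups. The calls used to choose them, however, depend on the size of the spread within groups in the same libraries. Whether that choice affects the p-values below was not tested. Deviations from the group mean on the log2(CPM + 0.5) scale were correlated over the 13 libraries, with p-values from all 11520 exact permutations within groups, two-sided and adjusted over 10 relations. CG13643 and Osi7 deviated together (Pearson r = 0.92, Spearman rho = 0.91, exact permutation p = 0.00304 and adjusted p = 0.0119 for r). Osi7 and CG34461 did so as well (r = 0.88, rho = 0.85, exact permutation p = 0.00148, adjusted p = 0.0119), as did CG13643 and CG34461 (r = 0.88, rho = 0.75, exact permutation p = 0.00356, adjusted p = 0.0119).

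No such relation was detected for CG16886. Its r was 0.14 with CG13643, 0.04 with Osi7 and -0.25 with CG34461, with exact permutation adjusted p between 0.825 and 0.897. Without the 2 libraries farthest from the median, OGT RNAi replicates 1 and 4, r was 0.82 for CG13643 with Osi7, 0.66 for CG13643 with CG34461 and 0.71 for Osi7 with CG34461. Without the 2 farthest libraries r of CG16886 was 0.52 with CG13643, 0.42 with Osi7 and, leaving out OGT RNAi replicates 2 and 4 for this pair, 0.28 with CG34461, so its low values rested in part on those libraries. Within the 9 libraries of the RNAi experiment r was 0.95, 0.92 and 0.88 for the 3 pairs without CG16886 and 0.06, 0.01 and -0.29 for the 3 pairs with it.

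OGT RNAi replicate 4 was the library where the genes parted most. It held the highest value of its group for CG13643, Osi7 and CG34461 and the lowest for CG16886, which rested there on 7 counts. It was also the shallowest library of its experiment, with 8183483 counts. Library size correlated with the deviations at r = -0.54 for CG13643, -0.65 for Osi7, 0.37 for CG16886 and -0.75 for CG34461, with exact permutation adjusted p between 0.201 and 0.650. Without the 2 farthest libraries these were 0.36, -0.01, 0.14 and 0.17, so the relation to depth rested on those libraries.

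**Figure D4:**
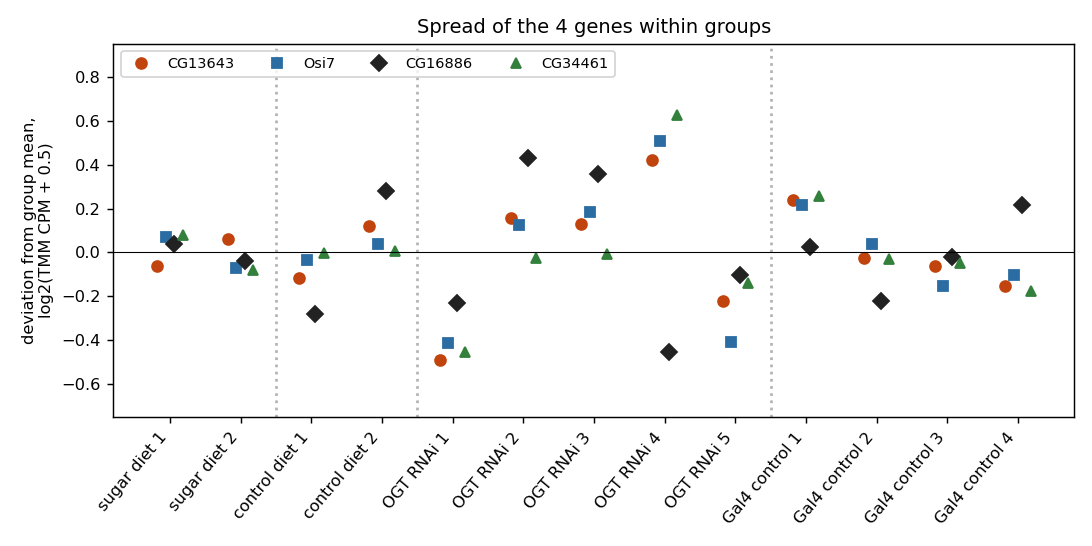
Deviation of each of the 4 genes from its group mean, in log2(TMM CPM + 0.5), in the 13 libraries; points of 1 library are set side by side and dotted lines separate the groups. In OGT RNAi replicate 4, CG13643, Osi7 and CG34461 lie above the group mean and CG16886 lies below it.

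Among the 6410 genes that averaged at least 5 CPM in both experiments, 37 followed the mean deviation of the 4 genes at r over 0.8 over the 13 libraries, against a median r of -0.01. That mean was led by the 3 genes that varied together: the 6 genes most alike had r of 0.70 to 0.97 with CG13643, Osi7 and CG34461 each, but 0.02 to 0.39 with CG16886. Their deviations also correlated with library size, at r of -0.66 to -0.42, and the part of depth in the likeness was not tested. The 6 most alike were CG10311 (r = 0.93), the lysosomal transporter spin (0.92), CG4374 (0.92), CG31183 (0.91), the inositol phosphate phosphatase Mipp2 (0.91) and the phosphate cotransporter Picot (0.91). None of them was called in both comparisons. Picot was called higher on sugar (log2 change 0.53, adjusted p in edgeR = 0.000429), the other 5 were not called there, and 0 of the 6 were called in OGT RNAi by edgeR, DESeq2 or limma on TPM (1 at an unadjusted p under 0.05). Picot lost its call on the TPM scale.

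All 4 genes shared an annotation the choice did not use. The deposited annotation names late pupal stages, when adult cuticle is made, as a peak of expression for each of them. For CG13643 and CG34461 it is the only peak, and Osi7 and CG16886 also have an embryonic one, at a time when larval cuticle is made. Among tested genes of the diet comparison with such a text, 15.2% named a late pupal peak and 3.23% named it alone. No chance statement is attached to the 4 genes, since they were few and chosen on these data.

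Genes with a late pupal peak alone, a list made after the annotation of the 4 genes had been read, were higher on sugar in 28 and lower in 6 of 259 tested genes other than the 4. That is 10.8% and 2.32%, against the 3.12% and 3.35% of all tested genes. With limma on TPM 12 were higher and 9 lower, and with DESeq2 17 were higher and 1 lower, so the higher and lower counts lay closer together on TPM. The count of higher genes was 11 without control diet replicate 1 and 13 without control diet replicate 2, and the count of lower genes was 1 without either of them. In OGT RNAi, where all 4 genes were lower, 10 of 257 genes of the list (3.89%) were called higher, against 1.04% of all tested genes, and 2 (0.778%, against 0.223%) lower, CG33110 (log2 change -0.51) and CG32052 (-1.75), neither of them called on sugar. DESeq2 called 12 higher and 4 lower, and limma on TPM 4 and 1. CG32052 lost its call without any library but OGT RNAi replicate 4, and the count of lower genes was 8 without that library. The count of higher genes was 3 without Gal4 control replicate 1, 2 or 4, 5 without Gal4 control replicate 3 or OGT RNAi replicate 1 or 3, and 6 without OGT RNAi replicate 5. Of the 28 genes called higher on sugar, 25 were tested in OGT RNAi, where 20 were negative and 5 positive, with a median log2 change of -0.15. Of these 25, 0 were called by edgeR (2 higher and 6 lower at an unadjusted p under 0.05) and 1 was called lower by DESeq2. The share of negative changes among all genes called higher on sugar is not given here. The split of signs is therefore not read as a trait of the late pupal list.

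Among cuticle protein genes other than CG16886, 11 of 36 tested genes (30.6%, against 3.12% of all tested genes) were called higher on sugar and 0 lower (3.35% of all) by edgeR (1 lower at an unadjusted p under 0.05, 0 by DESeq2 and 1 by limma on TPM), with a median log2 change of 0.72 (0.43 with TPM, against -0.27 over all genes). DESeq2 called 8 higher and limma on TPM 5. The list was drawn from symbols starting with Cpr, Twdl, Ccp84A, Lcp, Edg, Vajk or Cpap and a few single names. CG34461, CG13643 and any other cuticle gene under another symbol are not in it. The 11 included the R&R protein genes Cpr49Ah (1.16) and Cpr49Ae (0.83), the Tweedle gene TwdlT (0.72) and the Vajk gene CG30101 (1.05). Acp65Aa, TwdlT, Cpr49Ae, Cpr49Ah, Cpr62Bc and Cpr64Ac of the 11 were also among the late pupal genes called higher above, so these counts overlap. In OGT RNAi 4 of 28 (14.3%) were called by edgeR, all higher, against 1.04% higher and 0.223% lower over all tested genes: Lcp65Ag2 (1.36), Cpr97Eb (0.61), Cpr65Au (0.48) and Cpr57A (0.37), all R&R protein genes. At an unadjusted p under 0.05 in edgeR 12 were higher and 5 lower, and DESeq2 called 5 higher and 2 lower. Of the 11 genes called higher on sugar, 8 were tested in OGT RNAi. There 6 were negative, with a median of -0.68, but 0 were called lower by edgeR (4 at an unadjusted p under 0.05, 1 called by DESeq2) and 1, Cpr65Au, was called higher. Without the share over all genes called higher on sugar, this split is not read as a trait of cuticle genes either. The count on sugar was 3 without control diet replicate 1 and 5 without control diet replicate 2. The count in OGT RNAi was 1 without Gal4 control replicate 1 or 4, 2 without OGT RNAi replicate 3 and 7 without OGT RNAi replicate 4.

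All 3 other Vajk genes measured higher on sugar, and 2 of them were called. CG30101 (Vajk4) rose from 8.44 ± 0.10 to 17.5 ± 0.37 CPM (SD, n = 2 each; log2 change 1.05, adjusted p in edgeR = 0.00211). CG16884 (Vajk3) rose from 7.86 ± 0.19 to 15.5 ± 0.95 CPM (SD, n = 2 each; 0.98, adjusted p in edgeR = 0.00542), a call lost without either control diet replicate (adjusted p in edgeR 0.0604 and 0.0694). CG16885 (Vajk2) measured 6.77 ± 1.48 and 3.26 ± 1.40 CPM (SD, n = 2 each; 1.08, adjusted p in edgeR = 0.0696) and passed the threshold with no filter on low counts (0.0158) and without sugar diet replicate 1. Its log2 change ranged from 0.68 without control diet replicate 2 (adjusted p in edgeR = 0.516) to 1.58 without control diet replicate 1 (0.0660). With limma on TPM neither CG30101 nor CG16884 passed. In OGT RNAi all 3 had negative log2 changes that were not called: -0.61 for CG30101, -0.36 for CG16884 and, with no filter, -0.97 for CG16885 (adjusted p in edgeR 0.340, 0.762 and 0.433). The value of CG16884 rested on single libraries, at -0.80 without OGT RNAi replicate 4 and -0.20 without OGT RNAi replicate 1. They rested on 29 to 74 counts in all 5 RNAi libraries and 45 to 92 in the 4 controls. CG16885 and CG16884 lie near CG16886 on 2L, and CG30101 lies on 2R. Whether the change of CG16886 in OGT RNAi differs from theirs was not tested.

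With the filter on low counts and all libraries, no other Osiris gene was called higher on sugar or lower in OGT RNAi, whether by edgeR, DESeq2 or limma on TPM. The family has 24 genes in the files, and 20 of them, Osi7 included, start within 91.1 kb of the start of Osi7. Of these 24 genes 2 had no counts in any library, and 7 were tested on sugar and 4 in OGT RNAi, Osi7 included. Osi24 was called lower on sugar (8.65 ± 1.17 against 14.02 ± 0.40 CPM, SD, n = 2 each; log2 change -0.71, adjusted p in edgeR = 0.0478) and lost the call without sugar diet replicate 2 or either control diet replicate. The 5 others tested on sugar were not called, with log2 changes of 1.13 for Osi12, 0.67 for Osi6, 0.31 for Osi17, 0.10 for Osi8 and -0.43 for Osi9. With 1 library left out at a time Osi12 ranged from 0.62 to 1.85, Osi17 from 0.01 to 0.60, Osi9 from -0.997 to -0.07 and Osi8 from -0.49 to 0.48, so the direction of Osi8 changed with the library left out, while Osi6 stayed between 0.57 and 0.77. In OGT RNAi Osi24 (0.34), Osi8 (0.33) and Osi17 (-1.37) were not called, with adjusted p in edgeR between 0.260 and 0.273. Without OGT RNAi replicate 4, Osi24 (0.43) and Osi17 (-1.88) were.

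Osi6, the nearest gene before Osi7, was too low in the RNAi experiment to be tested. It had 4 counts in the 5 OGT RNAi libraries together and 29 in the 4 Gal4 controls, and with no filter on low counts it was lower in OGT RNAi (adjusted p in edgeR = 0.0262). By TPM, Osi7 ranked 2nd of the family on sugar, 4th on the control diet and 3rd in both groups of the RNAi experiment.

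**Figure D5:**
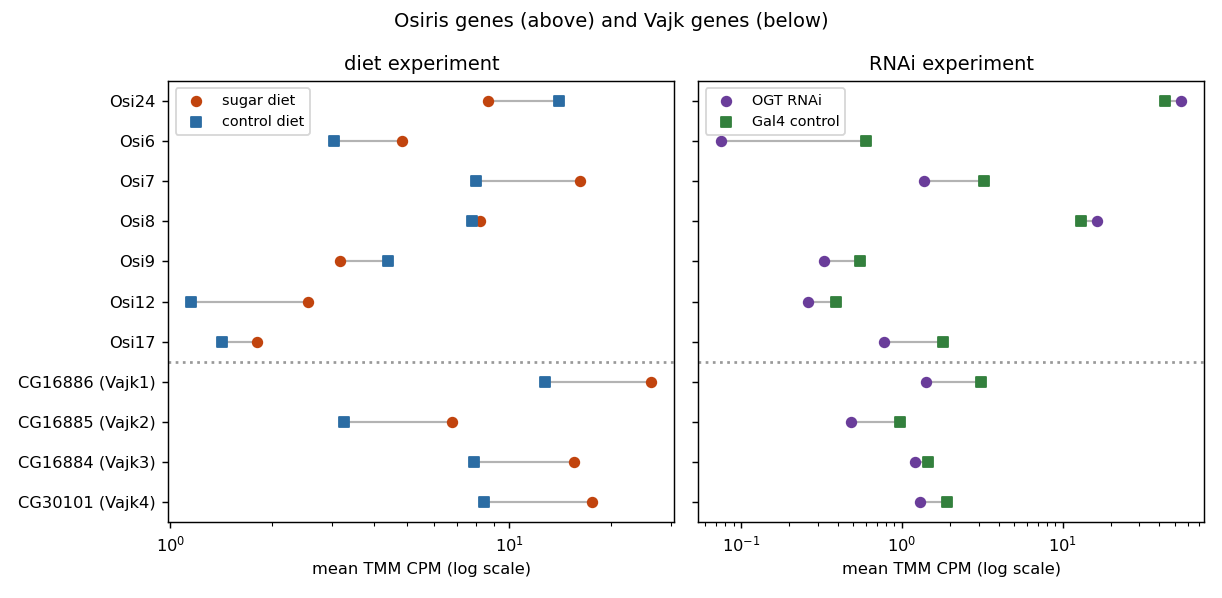
Mean TMM CPM, on log axes, of the 7 Osiris genes tested in the diet comparison (above the dotted line) and the 4 Vajk genes (below it) in the diet experiment (left) and the RNAi experiment (right), without error bars. All 4 Vajk genes lie higher on sugar, while among the Osiris genes Osi24 and Osi9 lie lower. Osi6, Osi9, Osi12 and CG16885 were too low to be tested in the RNAi experiment, at 0.0754, 0.327, 0.262 and 0.482 CPM in OGT RNAi. Their gaps in the right panel rest on few counts.

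The 2 nearest genes on each side and those overlapping them came to 18, of which 9 were tested on sugar and 6 in OGT RNAi, with 0 called by edgeR, DESeq2 or limma on TPM in either (1 in each at an unadjusted p under 0.05). Ance-3, a gene for a protein like angiotensin-converting enzyme, spans CG16886 on the opposite strand and measured 54.1 and 53.5 CPM on the sugar and control diets and 149 and 153 CPM in OGT RNAi and the Gal4 control. CG10845 lies within CG13643 on the opposite strand and stayed under 1 CPM. Neither shares exon bases with the gene it overlaps, and whether the counting used strand is not given in the sources used here. No other gene had the same counts as any of the 4 genes in all libraries.

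Other genes of cuticle formation were counted from lists, to be read against the 3.12% of all tested genes called higher and 3.35% lower on sugar, and the 1.04% higher and 0.223% lower in OGT RNAi. Among chitin synthesis and remodelling genes, 3 of 25 (12.0%) were higher on sugar, including the deacetylase gene serp (0.56) and the chitinase gene Cht6 (0.84), and 2 were lower, Idgf6 (-0.79) and Idgf4 (-0.32), which encode chitinase-like proteins. In OGT RNAi 3 of 25 were higher: the chitin-binding gene obst-E (0.55), the chitin synthase gene kkv (0.80) and serp (0.45). The count of called genes on sugar was 1 without either control diet replicate and 8 without sugar diet replicate 1. In OGT RNAi it was 5 without OGT RNAi replicate 4 and 1 without any other library but OGT RNAi replicate 2. Among genes for zona pellucida (ZP) domain matrix proteins, zye (1.00) and dpy (0.46) of 8 were higher on sugar, dpy not without either control diet replicate, and 0 of 7 were called in OGT RNAi (1 at an unadjusted p under 0.05 by edgeR, 0 by DESeq2). Of the 14 tested genes on the tanning list hgo (-0.76) was called lower on sugar, and no other was called there by edgeR. It encodes an enzyme of tyrosine breakdown, so its call is not read as a change of tanning. In OGT RNAi 0 of the 14 were called by edgeR (1 at an unadjusted p under 0.05, 1 called by DESeq2). The tanning count on sugar was 2 without sugar diet replicate 1 and 3 without sugar diet replicate 2. Of 16 moulting and epidermal transcription factor genes 0 were called in either comparison by edgeR (2 and 1 at an unadjusted p under 0.05, 0 by DESeq2), and 1 was called on sugar without sugar diet replicate 2.

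Markers listed for tracheal and epidermal cells, which secrete cuticle, were in part higher on sugar too. Of 9 markers 4 (44.4%, against 3.12% of all tested genes) were called higher, namely Cyp4g1, uif, serp and verm, and 0 lower by edgeR (0 at an unadjusted p under 0.05), but DESeq2 called 2 and limma on TPM 1 of them higher. The count was 1 without either control diet replicate. None of the 9 was at 0 in a whole group, and their summed level was 645 to 662 CPM on sugar and 535 to 549 CPM on the control diet. Cyp4g1 is a cytochrome P450 of hydrocarbon-producing oenocytes and so marks another cell type, and it rose from 0.596 to 8.31 CPM. Without it 3 of 8 were called higher by edgeR, 1 by DESeq2, 0 by limma on TPM and 0 without either control diet replicate, with summed levels of 636 to 655 CPM and 535 to 548 CPM. Of the 9 markers 5 stand in the lists above as well (serp, verm, Gasp, ple and trh). In OGT RNAi 1 of 7 was called, serp, and it was higher, with summed levels of 802 to 1006 CPM against 794 to 854 CPM. That call was lost without any library but OGT RNAi replicate 4. Muscle markers were also higher on sugar in 3 of 8 tested genes (0 without either control diet replicate and on TPM, 7 without sugar diet replicate 2), and glial markers in 2 of 4 (1 by DESeq2, 0 on TPM and without control diet replicate 2). Of 4 fat body markers 3 were lower and 1 higher, the latter not with DESeq2, on TPM or without sugar diet replicate 1 or either control diet replicate. Markers of sensillum support cells, the cells around the taste neurons, were lower on sugar in 1 of 6 genes, Obp49a (log2 change -0.33), in 0 with DESeq2, on TPM or without either control diet replicate, in 3 with no filter and in 4 without sugar diet replicate 2. Their summed level was 1775 to 2344 CPM on sugar and 2381 to 2510 CPM on the control diet. One haemocyte marker of 5 tested was higher and the 1 gut marker tested was lower, and 0 of 6 neuron and 0 of 10 taste neuron markers were called by edgeR (1 of each list at an unadjusted p under 0.05, 0 by DESeq2). Only 1 of the 10 taste neuron markers had a positive log2 change on sugar, and their median was -0.34. The summed level of the 14 listed taste neuron markers was 72.7 to 80.0 CPM on sugar and 94.3 to 100.8 CPM on the control diet. In OGT RNAi 0 of the muscle, glia, fat body, support cell, haemocyte, gut, neuron and taste neuron markers were called by edgeR. At an unadjusted p under 0.05 there were 3 fat body, 3 support cell, 3 taste neuron and 1 haemocyte marker, and DESeq2 called 1 fat body and 1 support cell marker higher. Of the 13 taste neuron markers tested in OGT RNAi 3 had a positive log2 change, and their median was -0.28. The summed levels of that list overlapped, at 213 to 273 CPM in OGT RNAi and 245 to 294 CPM in the Gal4 controls. The part of these in the changes of the 4 genes was not tested, and in whole proboscises more cells of a type and more RNA per cell cannot be told apart.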

How the data were processed

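RNA sequencing of proboscis RNA had been deposited as estimated (expected) counts and TPM per transcript for 13 libraries. Per the submitters' processing notes, the authors used Trimmomatic 0.22, kallisto 0.43 and sleuth. The genome build, annotation release and strand setting are not given in the sources used here. The deposited expected counts are unnormalized kallisto estimates, 54.7% of them not whole, and the deposited TPM are scaled within each library by the authors' kallisto run. The authors' deposited result tables give effects on a natural log scale with p-values and q-values.

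Expected counts of 30449 targets were summed to 13893 genes and rounded. The 52 targets without a gene name (0.042% to 0.0569% of each library's counts) entered no sum. Genes passing filterByExpr (minimum count 10, minimum total 15) were scaled by TMM and tested two-sided in R 4.3.3 by quasi-likelihood with edgeR 4.0.16 (robust fit), each experiment alone with no covariate, and adjusted by the Benjamini-Hochberg method over all genes tested. The test was first run on simulated counts with known changes and the same spread setting for every gene. That run does not show how the test behaves at the spread and counts of the 4 genes in OGT RNAi. Alternatives were DESeq2 1.42.0 and its size factors, no filter, limma 3.58.1 on log2(TPM + 0.5), an effective length offset, the replicate number as a block, and each library left out. P-values measure the spread between these libraries only. Counting intervals and floors (3 counts, 0.216 to 0.533 CPM per library) cover counting error only. No use of molecular identifiers is named among the authors' processing steps above.

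Positions come from the BDGP6 annotation. Of 9937 genes with a position there and in the deposited tables, 9888 were identical, the 4 genes among them. Symbols were matched through FlyBase identifiers. The named genes are the 4 chosen genes, other genes called in the same pair of directions (1 is not reported here), the 6 most alike in spread, the 2 nearest genes on each side, tested Osiris genes, for each list the 4 or fewer called genes of smallest adjusted p, and sxc. The nearest genes outside the choice, the Vajk relatives, CG33110, CG32052 and the epidermal markers were named after their values had been seen, and the late pupal list and the marker counts under each alternative and without Cyp4g1 were added then too. Members and lists were chosen with earlier results of these data known. Whether replicate numbers pair the libraries is not given in the labels, and the main fits used no pairing.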

Additional observations from a re-analysis of the deposited data

Results flagged for a closer look

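In 42 groups of 4 or 5 libraries, formed by the 4 genes and other named genes in the RNAi experiment, 2 held a library far from the others, where chance gives about 1 in 20. The targeted gene sxc reached 170 CPM in OGT RNAi replicate 2, the only RNAi library to overlap the Gal4 controls. The median of the 5 was 136 CPM and the lowest 133 CPM. CG16884 (Vajk3), a relative of CG16886, reached 2.71 CPM in 1 OGT RNAi library against a group mean of 1.21 CPM. None of the flagged groups was one of the 4 genes themselves.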

How the results depend on the processing

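The log2 changes of the 4 genes kept their direction in all 100 values computed, 9 of which moved by more than the spread between replicates. On log2(TPM + 0.5) these were the sugar changes of all 4 and the RNAi change of Osi7, given in the text. With the length offset they were both changes of CG34461, also given there. The others were the sugar changes of CG16886 without control diet replicate 2 (1.36) and of CG34461 without sugar diet replicate 2 (1.27). Of 934 values of other named genes, 824 kept direction and side of the threshold, 70 lost their call, 16 gained one and 24 turned sign, each of them with no call before or after. On TPM the sugar changes turned to -0.25 for obst-E, -0.30 for Ance-3, -0.27 for Osi8, -0.086 for CG10311, -0.19 for CG4374, -0.13 for CG32052, -0.12 for CG31183 and -0.22 for CG33110, where the median of all genes was -0.27. With the length offset they turned to -0.012 for Ance-3 and 0.0028 for Cpr97Eb. With 1 library left out the sugar changes ranged from -0.0033 to 0.73 for kkv, -0.055 to 0.10 for obst-E, -0.10 to 0.13 for Ance-3, -0.49 to 0.48 for Osi8, -0.17 to 0.19 for Cpr97Eb, -0.57 to 0.73 for CG32052 and -0.00019 to 0.12 for CG33110, and the RNAi changes from -0.0026 to 0.14 for zye and -0.22 to 0.44 for CG42711. The 4 genes held 7 to 36 counts in each OGT RNAi library, which limits the precision of their RNAi values.

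On sugar, 571 genes were called by edgeR and 333 by DESeq2. In OGT RNAi 119 were called by edgeR and 266 by DESeq2. With 1 library left out these ranged from 195 to 938 and from 42 to 264. On sugar the called Osiris genes (1, from 0 to 1 with 1 library left out) were 2 with no filter and 0 with DESeq2 or the length offset. Matrix genes (2, from 1 to 3) were 1 on TPM, and chitin genes (5, from 1 to 8) were 8 with no filter and 2 with DESeq2 or on TPM. Cuticle genes (11, from 3 to 14) were 6 on TPM, and genes of the tanning list (1, from 1 to 3) were 3 with no filter and 2 on TPM. Moulting genes ranged from 0 to 1. In OGT RNAi the Osiris count (0, from 0 to 2) was 1 with no filter, the tanning count (0, from 0 to 0) was 1 with no filter or DESeq2, the chitin count (3, from 1 to 5) was 6 with DESeq2 and 1 on TPM, and the cuticle count (4, from 1 to 7) was 7 with DESeq2. The causes were not tested.

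With the replicate number as a block, 728 genes were called on sugar, 3 of them on the tanning list, and 63 in OGT RNAi, 1 of them a chitin gene. The block left 4 of the 4 genes past the threshold on sugar and 0 in OGT RNAi. Whether the numbers pair the libraries is not given in the labels. Deviations of same-numbered libraries correlated at 0.0031 in the diet experiment, where 2 libraries a side mirror each other and cannot decide it. In the RNAi experiment the correlations were 0.168, -0.295, -0.0291 and -0.0653 for numbers 1 to 4. The best with another number were 0.0997, 0.143, 0.162 and 0.114, so only number 1 went most with its own. These values do not exclude a pairing.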
